A study of Mus musculus with 8 samples.

Results

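A set of 5 proteins made largely by neutrophils and other myeloid cells was followed on a mouse cytokine antibody array: myeloperoxidase (Mpo), lipocalin-2 (Lcn2), chitinase 3-like 1 (Chil1), matrix metalloproteinase 9 (Mmp9) and pentraxin 3 (Ptx3). They were taken from the array by their Entrez gene identifiers and are 5 of its 111 analytes. The study measured secreted proteins in lysates of subcutaneous mouse tumours, as part of work on radioresistance and on treatment with radiation and interleukin-7. There were 8 groups, made of 2 tumour lines under 4 treatments, with 1 membrane per group. The parental line, TC-1, is of mouse epithelial origin and carries the HPV16 oncogenes E6 and E7. A radiation-resistant line with the same oncogenes, TC-1/IR, was the other. Female C57BL mice of 10 weeks carried tumours grown from 100000 TC-1 cells or 300000 TC-1/IR cells placed in the right thigh, and treatment started near 100 mm3, on days 8 to 10. The groups got buffer, RT (gamma rays to the whole body, 2 Gy a day for 4 days), IL-7 (rhIL-7-hyFc, a human IL-7 fused to an Fc part, 50 µg under the skin on days 0 and 7) or RT + IL-7. The titles call the lysates pooled while the design text describes tumours of individual mice, and how many animals a membrane stands for is not known.

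Neutrophils carry ready-made proteins in granules. Myeloperoxidase, a heme enzyme of the primary granules, makes hypochlorous acid. Lipocalin-2, which binds bacterial iron carriers, and the gelatinase MMP-9 are stored in later granules, and both are also made by epithelial and other cells under inflammatory signals. Chitinase 3-like 1 is a chitin-binding protein without chitinase activity, released by neutrophils, macrophages and some tumour cells. Pentraxin 3 is a soluble pattern recognition protein that macrophages, dendritic cells, endothelium and fibroblasts make when IL-1, TNF or microbial signals reach them. None of the 5 is exclusive to one cell type, and in a lysate of whole tissue fewer cells and less protein per cell cannot be told apart.

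Values are spot intensities in arbitrary units, as means of the duplicate spots, and the spread between duplicate spots covers technical error only. The number of arrays limits the precision, since no group had a second membrane. The 111 analytes summed to 739 to 1495 units per membrane, and 36 to 91 of them were above a floor of 2.49, which is 1% of the highest analyte. Above the floor the median variation between duplicate spots was 5.02% to 11.1% per membrane. Values under the floor were set to it before any ratio or log2 value, and such values have no order among themselves. Of the 5 proteins, myeloperoxidase was above the floor on 8 of 8 membranes, pentraxin 3 on 7, chitinase 3-like 1 on 4, lipocalin-2 on 1 and MMP-9 on none. The 3 that were above it on at least 4 membranes entered the tests, out of 75 such analytes.

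In the mouse assembly GRCm38.p6, Mpo (Entrez 17523) lies at chr11:87793784-87804412, Lcn2 (Entrez 16819) at chr2:32384637-32387739, and Chil1 (Entrez 12654) at chr1:134182156-134190031. Mmp9 (Entrez 17395) lies at chr2:164940326-164955850 and Ptx3 (Entrez 19288) at chr3:66219887-66225806. Mpo, Lcn2 and Chil1 sit on 3 different chromosomes, and their proteins shared their highest membrane, TC-1/IR IL-7. For that reason their RefSeq promoters are printed here, from 250 bases before the annotated start to 50 after it, at chr11:87793534-87793833 on the plus strand, chr2:32387690-32387989 on the minus strand and chr1:134181906-134182205 on the plus strand. Capitals mark matches to 2 short motifs searched on both strands. They were TTGCNNAA, a core of the sites of the C/EBP factors, and GAGGAA, a core of the sites of the myeloid factor PU.1. No matches overlapped.
Mpo: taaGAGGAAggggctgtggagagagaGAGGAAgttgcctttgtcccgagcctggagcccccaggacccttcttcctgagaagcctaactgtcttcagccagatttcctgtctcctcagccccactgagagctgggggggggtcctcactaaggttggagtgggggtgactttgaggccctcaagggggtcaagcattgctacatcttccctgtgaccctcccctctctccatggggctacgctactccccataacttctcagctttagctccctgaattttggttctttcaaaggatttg
Lcn2: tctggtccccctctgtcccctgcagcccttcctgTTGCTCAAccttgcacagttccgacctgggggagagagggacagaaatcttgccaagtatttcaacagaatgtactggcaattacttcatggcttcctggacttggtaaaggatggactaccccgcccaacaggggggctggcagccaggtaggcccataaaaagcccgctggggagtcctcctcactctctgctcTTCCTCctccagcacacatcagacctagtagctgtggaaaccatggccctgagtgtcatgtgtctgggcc
Chil1: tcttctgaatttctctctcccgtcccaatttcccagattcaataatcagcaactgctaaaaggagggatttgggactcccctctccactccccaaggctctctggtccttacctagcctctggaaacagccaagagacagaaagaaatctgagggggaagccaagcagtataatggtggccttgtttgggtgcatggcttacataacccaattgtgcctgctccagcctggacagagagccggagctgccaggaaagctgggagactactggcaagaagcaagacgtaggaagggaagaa
The Mpo promoter held GAGGAA in 2 places, and the Chil1 promoter held neither motif. The Lcn2 promoter held TTGCTCAA and, for GAGGAA on the other strand, TTCCTC. The Ptx3 promoter, not printed, held TTGTGCAA, a match to TTGCNNAA on the other strand. Pentraxin 3 was not highest on TC-1/IR IL-7, so these matches do not set the 3 printed genes apart. Among 32544 RefSeq promoters of this length, 28.1% held GAGGAA and 10.8% held TTGCNNAA on either strand. These matches describe the letters in the window. Protein was measured, and neither binding nor transcription was.

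Myeloperoxidase in TC-1 tumours read 25.3 under buffer, 9.11 under RT, 24.6 under IL-7 and 8.88 under RT + IL-7. Its TC-1/IR readings were 10.2 under buffer, 7.96 under RT, 102 under IL-7 and 4.08 under RT + IL-7. A single membrane, TC-1/IR IL-7, stood far above the other 7, and its duplicate spots read 101 and 103. There myeloperoxidase made up 6.83% of the summed signal, against 1.34% on the TC-1/IR buffer membrane. In TC-1 the levels fell into a pair without RT and a pair with RT, and IL-7 left each pair within 1.03-fold.

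Lipocalin-2 was at 0.89, 1.59, 1.67 and 1.80 in TC-1, in the order buffer, RT, IL-7 and RT + IL-7. In TC-1/IR the values were 0.0455, 0.21, 6.59 and 0.185 in the same order. Only TC-1/IR IL-7 was above the floor, so 7 of 8 membranes give an upper bound. Chitinase 3-like 1 was at 1.85, 3.89, 5.24 and 3.81 in TC-1 and at 0.67, 1.76, 7.35 and 1.5 in TC-1/IR. Its highest membrane was again TC-1/IR IL-7, where its spots read 7.75 and 6.95, and TC-1 IL-7 came next with spots of 4.87 and 5.60. The TC-1 buffer membrane and the other 3 TC-1/IR membranes were under the floor.

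MMP-9, the gelatinase of neutrophil granules, reached at most 0.645, on TC-1 IL-7, and was under the floor on 8 of 8 membranes. On TC-1/IR IL-7 its spots read 0.001 and 0.0011, the lowest values in the files. What these values stand for is not stated. That membrane had 47 spots at these values, the most of the 8 (0 to 35 on the others). No ratio is given for MMP-9, since all membranes were under the floor.

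Pentraxin 3 was at 7.88, 8.55, 11.04 and 6.76 in TC-1, in the order buffer, RT, IL-7 and RT + IL-7. In TC-1/IR it was at 3.64, 7.59, 3.11 and 2.10. Unlike myeloperoxidase, it was highest on TC-1 IL-7, and TC-1/IR IL-7 was the second lowest of the 8. In TC-1/IR the RT membrane was the highest, and it lay within the range of the TC-1 membranes.

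**Figure D1:**
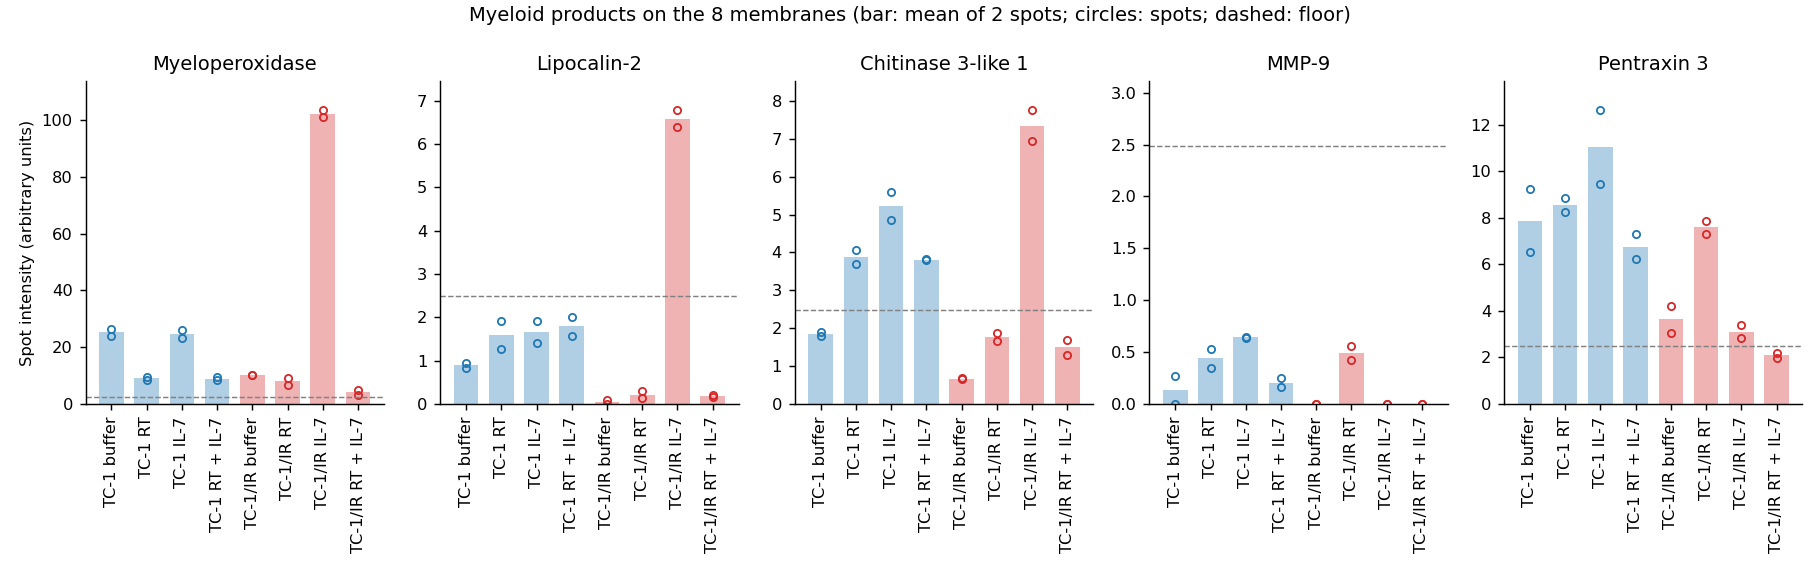
Spot intensity (arbitrary units, linear axes from 0, a separate scale per protein) of the 5 proteins on the 8 membranes; bars are means of the duplicate spots, circles the spots, blue TC-1, red TC-1/IR, and the dashed line is the floor of 2.49. Myeloperoxidase, lipocalin-2 and chitinase 3-like 1 were highest on TC-1/IR IL-7 (102, 6.59 and 7.35), MMP-9 stayed under the floor and pentraxin 3 was highest on TC-1 IL-7 (11.04).

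The first comparison asked how irradiation changed these proteins, over 4 pairs of membranes alike in line and IL-7. Myeloperoxidase was lower with RT in 4 of 4 pairs, and the 4 membranes with RT (4.08 to 9.11) lay below the 4 without (10.2 to 102). Its mean was 40.6 ± 41.6 without RT and 7.50 ± 2.34 with RT (SD, n = 4 membranes each, of different line and treatment). A complete separation downward held for 1 of 75 analytes (1.33%), and that analyte was myeloperoxidase. After median centring of the membranes it was also the 1 of 72 (1.39%), at 6.14 to 9.36 with RT and 14.1 to 100.2 without, and after quantile normalization the 1 of 70 (1.43%).

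In limma the difference was -1.99 on the log2 scale (SE 0.65, 95% interval -3.51 to -0.47, unadjusted p = 0.0169). It did not pass the test across the 75 analytes (limma adjusted p = 0.636). After quantile normalization the difference was -1.80 and passed it, with a limma adjusted p of 0.000657. The adjusted p ranged from 0.000657 to 1.0 over the 18 alternatives, and leaving out TC-1/IR IL-7 gave -1.17 (limma adjusted p = 0.216). RT had 1 call among 75 analytes (1.33%), the interferon-induced chemokine Cxcl10, which was higher. None of the 3 tested proteins was called, and the differences were -0.34 (SE 0.35) for chitinase 3-like 1 and 0.04 (SE 0.35) for pentraxin 3.

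Pair by pair, a rule of size was used. It called a protein where the ratio was 1.5-fold or more, the higher membrane exceeded the floor and the spots of the membranes were disjoint. The 12 pairs made from 8 membranes share them, and TC-1/IR IL-7 enters 3. Against buffer in TC-1, RT went with 2.78-fold less myeloperoxidase (log2 -1.48, SE of spots 0.11), the lowest ratio of 68 analytes above the floor on both membranes. By this rule 3.49% of 86 analytes were lower in that pair and 19.8% were higher, chitinase 3-like 1 among the latter with at least 1.56-fold (after centring at least 1.32-fold, short of the rule). On top of IL-7 in TC-1, RT went with 2.77-fold less myeloperoxidase (log2 -1.47, SE of spots 0.12), the lowest ratio of 78. Here 22% of 91 analytes were lower and 2.2% higher, and pentraxin 3 was among them with 1.63-fold, but with 1.15-fold after centring it did not meet the rule. Myeloperoxidase was 2.68-fold and 1.95-fold lower in these 2 pairs after centring, where 1.28% of 78 and 3.49% of 86 analytes were lower.

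In TC-1/IR the RT pairs were unlike each other. Against buffer, myeloperoxidase was 1.28-fold lower (log2 -0.36, SE of spots 0.21), which did not meet the rule, in a pair where 46.3% of 67 analytes were higher and 2.99% lower. The RT membrane had the higher summed signal, 1473 against 765, and after centring myeloperoxidase was 2.30-fold lower, among 20% of 60 analytes. Pentraxin 3 was 2.09-fold higher as deposited and 1.17-fold higher, short of the rule, after centring. On top of IL-7, myeloperoxidase was 25.1-fold lower (log2 -4.65, SE of spots 0.33), the lowest ratio of 30 analytes and beyond that of CD14 at -2.21. Chitinase 3-like 1 was at least 2.95-fold lower and lipocalin-2 at least 2.65-fold lower. Lower values were common there, at 57.4% of 54 analytes as deposited (7.41% higher) and 21.5% of 65 after centring. On either scale 3 of 4 measured proteins of the set were lower. As deposited, chitinase 3-like 1 and lipocalin-2 were under the floor with RT + IL-7 and counted as measured only through the IL-7 membrane. They could not come out higher, and after centring this still held for lipocalin-2. After centring myeloperoxidase was 13.8-fold lower.

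**Figure D2:**
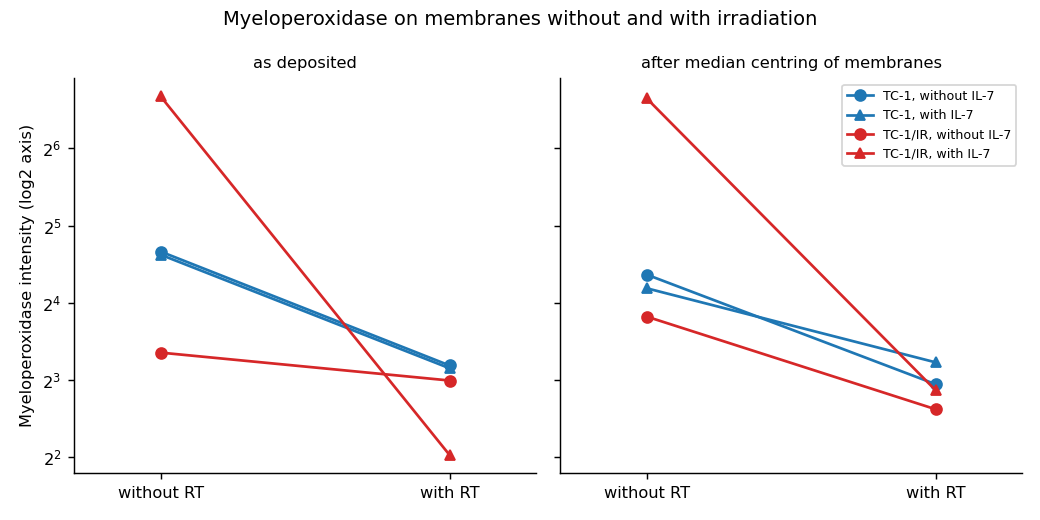
Myeloperoxidase intensity (arbitrary units, log2 axis) on membranes without and with RT, as deposited (left) and after median centring (right); each line joins 2 membranes alike in tumour line (blue TC-1, red TC-1/IR) and IL-7 (circles without, triangles with). All 4 lines go down on either scale, from 10.2 to 102 without RT to 4.08 to 9.11 with RT as deposited, and the slope is shallowest for TC-1/IR without IL-7 as deposited.

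The second comparison asked what IL-7 did. In unirradiated TC-1/IR tumours, myeloperoxidase read 9.99-fold higher under IL-7 than under buffer (log2 3.32, SE of spots 0.02), the highest ratio of 33 analytes above the floor on both membranes, ahead of Il1rn, the IL-1 receptor antagonist, at 2.47. Lipocalin-2 was at least 2.65-fold and chitinase 3-like 1 at least 2.95-fold higher, while pentraxin 3 was 1.17-fold lower, short of the rule. So 3 of 4 measured proteins of the set were higher, in a pair where 49.1% of 53 analytes were higher and 5.66% lower. Of these 3, lipocalin-2 and chitinase 3-like 1 were under the floor with buffer and counted as measured only through the IL-7 membrane. They could not come out lower, so the count of 3 carries no weight of its own. The summed signal was 1495 against 765. After centring, which removes the shift between membranes, 32.2% of 59 analytes were higher and 18.6% lower. The same 3 proteins were then higher, myeloperoxidase by 7.09-fold and chitinase 3-like 1 by at least 2.90-fold, and pentraxin 3 was 1.65-fold lower.

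In unirradiated TC-1 tumours the same treatment left myeloperoxidase 1.03-fold lower (log2 -0.04, SE of spots 0.11). Chitinase 3-like 1 was at least 2.10-fold higher, and at least 1.55-fold after centring (among 21% of 81 analytes), in a pair where 31.9% of 91 analytes were higher and 1.1% lower. Pentraxin 3 was 1.40-fold higher, short of the rule. With RT in both arms, IL-7 moved none of the 3 measured proteins past the rule in TC-1, where 4.49% of 89 analytes were higher and 10.1% lower. In irradiated TC-1/IR tumours, IL-7 went with 1.95-fold less myeloperoxidase and at least 3.05-fold less pentraxin 3, and 47% of 66 analytes were lower and 4.55% higher. After centring myeloperoxidase was 1.18-fold higher there, short of the rule, and pentraxin 3 was 1.57-fold lower, among 18.2% of 66 analytes.

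Averaged over the 4 pairs, limma gave no call for IL-7 among 75 analytes (0%), and none had an unadjusted p under 0.05. The IL-7 differences were 0.65 (SE 0.35, limma adjusted p = 0.974) for chitinase 3-like 1, 0.57 (SE 0.65) for myeloperoxidase and -0.42 (SE 0.35) for pentraxin 3. Chitinase 3-like 1 averaged 2.04 ± 1.34 without and 4.47 ± 2.46 with IL-7 (SD, n = 4 membranes each), and the groups overlapped. When TC-1/IR IL-7 was left out, myeloperoxidase had an average difference of -0.25.

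The third comparison set the lines against each other under each treatment. The mean of pentraxin 3 was 8.55 ± 1.81 over the TC-1 membranes and 4.11 ± 2.41 over those of TC-1/IR (SD, n = 4 each), and each of the 4 pairs was lower for TC-1/IR. The limma difference was -1.14 (SE 0.35, 95% interval -1.96 to -0.32, limma adjusted p = 0.0370), and it fell among 41.3% of the 75 analytes called for line, 1 of them higher and 30, or 40%, lower. After centring 5 were higher and 22 lower, and after quantile normalization 6 and 10 of 70. The median line difference over all analytes was -0.58 as deposited and -0.32 after centring. The TC-1/IR RT + IL-7 membrane was under the floor for pentraxin 3 and entered at the floor. As deposited the 2 lines overlapped, because of TC-1/IR RT, and after centring they did not (6.4 to 8.16 against 3.05 to 5.86), as for 29.2% of 72 analytes in this direction (41.3% of 75 as deposited, without pentraxin 3). The call was lost after quantile normalization, where the difference was -0.34 (limma adjusted p = 0.415), and in 7 of the 8 fits with a membrane removed. It held without TC-1/IR RT, at -1.52 (limma adjusted p = 0.00271), in a fit that called 38 of 75 analytes, 37 of them lower.

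By pairs, pentraxin 3 was 2.17-fold lower in TC-1/IR with buffer, where 51.4% of 72 analytes were lower and 4.17% higher, 3.55-fold with IL-7, where 57% of 93 were (6.45% higher), and at least 2.71-fold with RT + IL-7, where 56.4% of 78 were (2.56% higher). With RT the lines differed by 1.13-fold, short of the rule, while 36.7% of 90 analytes were lower and 13.3% higher. After centring the difference with buffer was 1.27-fold and no longer met the rule, and those with IL-7 (2.68-fold, among 36.9% of 84 analytes) and RT + IL-7 (1.90-fold, among 34.9% of 83) did.

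Myeloperoxidase showed no common direction between the lines. It was 2.48-fold lower in TC-1/IR with buffer, 1.14-fold lower with RT, 2.18-fold lower with RT + IL-7 and 4.15-fold higher with IL-7. After centring only the last of these met the rule, at 5.50-fold, in a pair where 14.3% of 84 analytes were higher. The limma line difference was -0.14 (SE 0.65, limma adjusted p = 0.872), and it was 0.31 after centring. When TC-1/IR IL-7 was left out it was -0.96 (limma adjusted p = 0.0480). That fit called 25 of 75 analytes, all lower, and the median difference over all was -0.63. Under IL-7, TC-1/IR tumours had at least 2.65-fold more lipocalin-2 than TC-1 tumours, in a pair where 6.45% of 93 analytes were higher. Lipocalin-2 was under the floor on TC-1 IL-7 and counted as measured only through TC-1/IR IL-7, so it could not come out lower. Both lines were under the floor in the other 3 pairs. Chitinase 3-like 1 was 1.40-fold higher in TC-1/IR with IL-7, short of the rule. It was at least 1.56-fold lower with RT and at least 1.53-fold lower with RT + IL-7. As deposited, TC-1/IR was under the floor in both of these pairs, so chitinase 3-like 1 could not come out higher. After centring it was 1.86-fold higher with IL-7, which met the rule. With RT it was then at least 1.32-fold lower and with RT + IL-7 1.5-fold lower, both short of the rule.

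**Figure D3:**
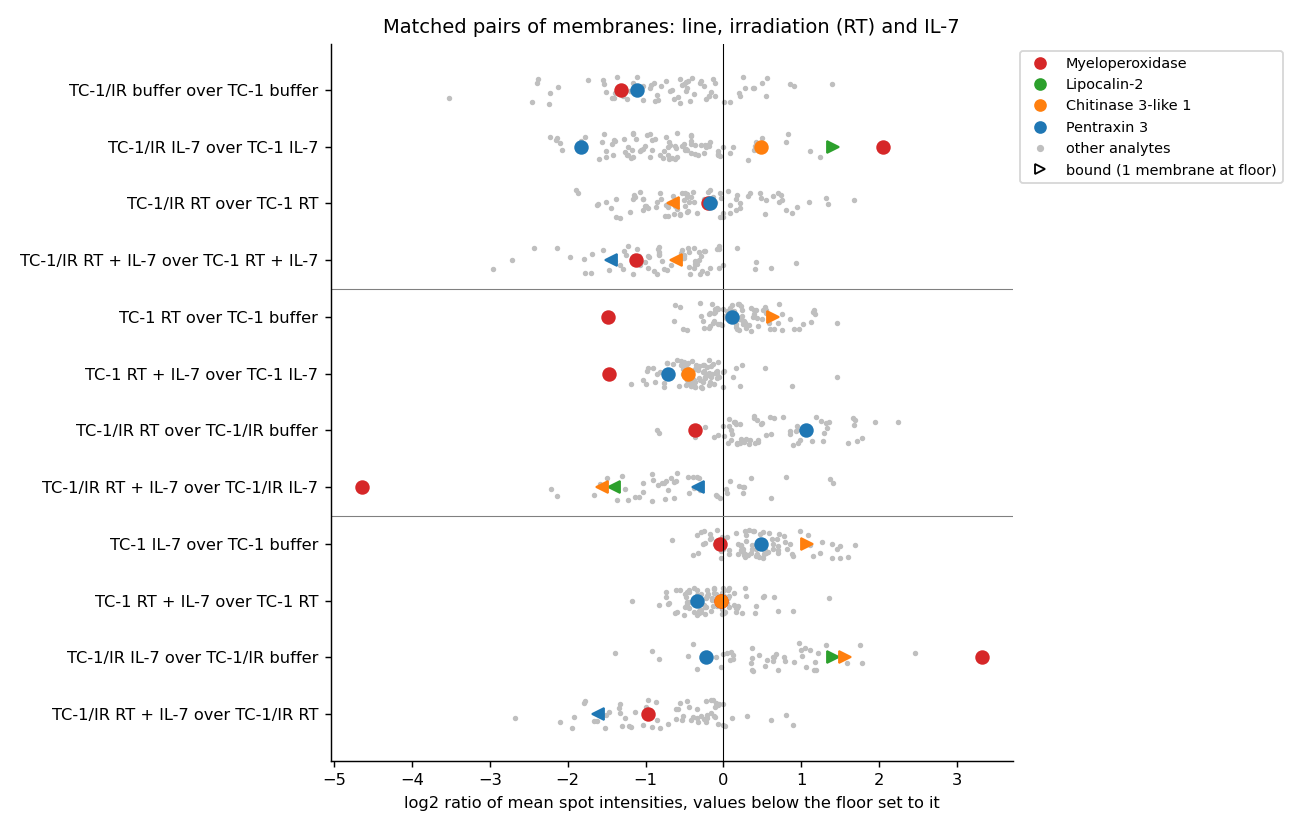
Log2 ratio of mean spot intensities for 12 pairs of membranes that differ in line (top 4), RT (middle 4) or IL-7 (bottom 4); coloured symbols are the proteins described, triangles are bounds where 1 membrane is at the floor, and grey points are the other analytes above the floor on at least 1 membrane. Myeloperoxidase lies left of all other points in 3 of the 4 RT pairs and is the rightmost point for TC-1/IR IL-7 over buffer (3.32).

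Whether RT and IL-7 added up was asked next, and these values reuse the same membranes as the pairs above. In TC-1 the log2 ratio of RT + IL-7 to IL-7 less that of RT to buffer was 0.00 for myeloperoxidase (SE of spots 0.16). In TC-1/IR it was -4.29 (SE of spots 0.39), the lowest of 28 analytes above the floor on all 4 membranes, whose median was -1.64. CD14 came next at -3.89. After centring the value was -2.58, the lowest of 30 with a median of 0.05, again ahead of CD14 at -2.18. With 1 membrane per group these values carry no test within a line.

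Over both lines, limma gave an RT by IL-7 interaction of -2.14 (SE 1.07, limma adjusted p = 0.308) for myeloperoxidase, -1.33 (SE 0.51, unadjusted p = 0.0339, limma adjusted p = 0.261) for chitinase 3-like 1 and -1.10 (SE 0.59, limma adjusted p = 0.313) for pentraxin 3. No analyte of 75 was called (0%), 14 had an unadjusted p under 0.05, and the median over all 75 was -0.64. For myeloperoxidase the interaction was -0.68 when TC-1/IR IL-7 was left out. It passed the test without TC-1 IL-7 (-3.60, limma adjusted p = 0.00284) and without TC-1 RT (-2.11, limma adjusted p = 0.0237). Of 75 analytes these 2 fits called 1 and 15, all lower. The line by RT difference of myeloperoxidase was -1.03 (SE 1.27, limma adjusted p = 0.999) and its line by IL-7 difference 1.22 (SE 1.27, limma adjusted p = 0.982). Neither interaction had a call among 75 analytes (0%), with 0 and 1 at an unadjusted p under 0.05, so a difference of the IL-7 response between the lines was not shown by the test.

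The last comparison asked whether the proteins moved together from membrane to membrane. Over the 8 membranes, on log2 values with the floor, myeloperoxidase and chitinase 3-like 1 had a Pearson r of 0.742 (two-sided exact permutation p = 0.0327, adjusted p = 0.196) and a Spearman rho of 0.52 (exact permutation p = 0.182). Without the 2 membranes farthest from the median of myeloperoxidase, r was 0.758. The r was 0.961 within TC-1/IR and -0.139 within TC-1, with 4 membranes each, and the lines' values were not tested against each other. Chitinase 3-like 1 was above the floor on 1 of the 4 TC-1/IR membranes, so the first value rests on TC-1/IR IL-7. The TC-1 value was 0.561 with a floor of 2% and 0.999 without TC-1 buffer (3 membranes). After centring, r was 0.753 (exact permutation p = 0.0542) and turned to -0.161 without the 2 farthest membranes, and without TC-1/IR IL-7 the deposited values gave 0.387. Without TC-1 buffer they gave 0.891 (exact permutation p = 0.00714, adjusted p = 0.0429), the only fit with a membrane left out in which a pair passed.

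Lipocalin-2 followed the same single membrane, with r of 0.798 to myeloperoxidase and 0.729 to chitinase 3-like 1 (exact permutation p = 0.125 for each, the smallest p that 1 membrane above the floor allows). Their rho was 0.577 (exact permutation p = 0.25) and 0.615 (exact permutation p = 0.125). For pentraxin 3 the r over the 8 membranes was 0.0296 to myeloperoxidase (rho 0.238), 0.0643 to chitinase 3-like 1 (rho 0.241) and -0.446 to lipocalin-2 (rho -0.412), with exact permutation p between 0.375 and 0.941. These low values rest on TC-1/IR IL-7. When that membrane was left out, r was 0.716 to myeloperoxidase (exact permutation, adjusted p = 0.179) and 0.637 to chitinase 3-like 1 (exact permutation, adjusted p = 0.179), against 0.387 between the latter pair. Without the 2 membranes farthest from the median, r was 0.752 and 0.471. Adjusted over the 6 relations, 0 passed 0.05 and the lowest adjusted p was 0.196. MMP-9, at the floor throughout, could not be correlated, so 6 of the 10 pairs of proteins were computed. All 8 membranes are different conditions and share a shift of the whole membrane.

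**Figure D4:**
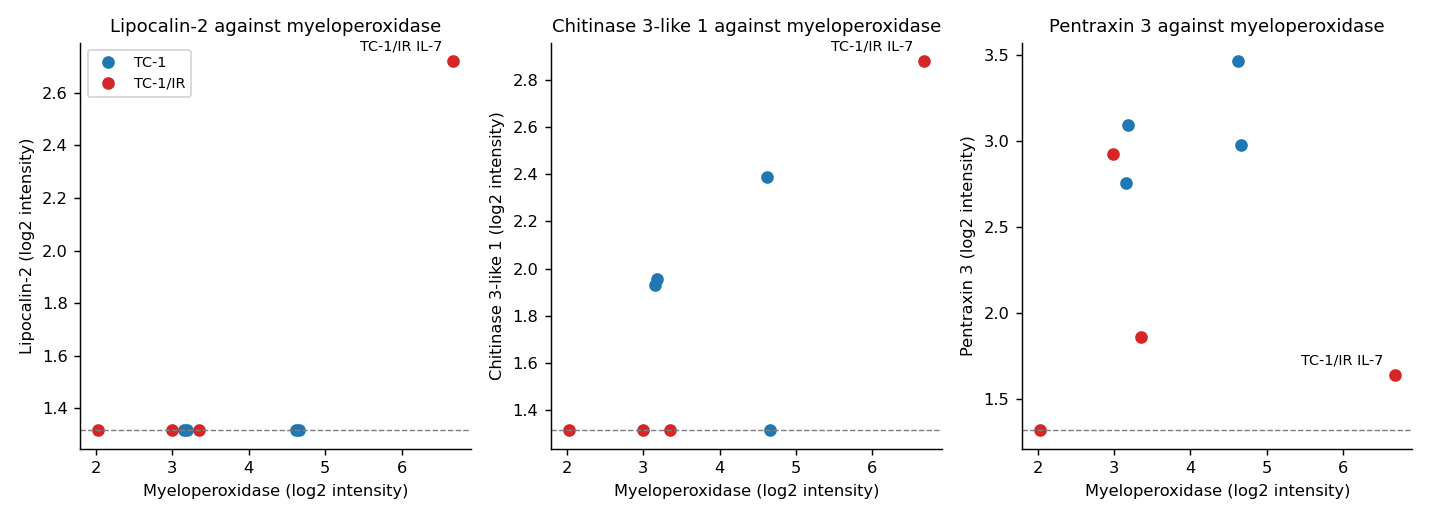
Lipocalin-2, chitinase 3-like 1 and pentraxin 3 (vertical axes, log2 intensity) against myeloperoxidase (horizontal axes, log2 intensity) on the 8 membranes, blue TC-1 and red TC-1/IR, with the dashed line at the floor. Lipocalin-2 leaves the floor on TC-1/IR IL-7 alone, chitinase 3-like 1 is highest there (r = 0.742), and pentraxin 3 is low there (r = 0.0296).

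Among 72 analytes and on centred log2 values over the 8 membranes, those most like myeloperoxidase were CD14, the endotoxin co-receptor of monocytes and macrophages (r = 0.59), the growth factor PDGF-BB (r = 0.52) and the endothelial adhesion molecule E-selectin (r = 0.52). For chitinase 3-like 1 they were IGFBP-3 (r = 0.75), CCL11 (r = 0.63) and acidic FGF (r = 0.60). For pentraxin 3 they were CCL22 (r = 0.88), CD40 (r = 0.84) and IL-28A/B (r = 0.80). On centred values none of these 3 short lists shared an analyte. As deposited, those of myeloperoxidase and chitinase 3-like 1 shared E-selectin (r = 0.76 and 0.87) and PDGF-BB (r = 0.81 and 0.77). Without TC-1/IR IL-7, those most like myeloperoxidase were RAGE (r = 0.55), IL-12 (r = 0.54) and IL-1 alpha (r = 0.48), and no analyte of the first list returned. The other lists were replaced as well, by GDF-15 (r = 0.94), IL-5 (r = 0.93) and EGF (r = 0.93) for chitinase 3-like 1 and by proliferin (r = 0.89), endostatin (r = 0.89) and VEGF (r = 0.88) for pentraxin 3.

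Other proteins were also high on TC-1/IR IL-7. CD14 was at 51.8, 166, 179 and 38.7 in TC-1/IR, in the order buffer, RT, IL-7 and RT + IL-7, and at 94.7 to 132 in TC-1. It was high on TC-1/IR RT as well, where myeloperoxidase was at 7.96. Of 3 monocyte and macrophage markers, CD14, Ccl6 and Ccl12, only CD14 was above the floor on TC-1/IR IL-7. There Ccl6 read 1.66 and Ccl12 2.065. The sum of the 3 was 44.1 to 183 in TC-1/IR and 103 to 136 in TC-1, and CD14 was most of it. Between the lines under IL-7, CD14 was higher for TC-1/IR by the rule, and Ccl6 and Ccl12 were lower. For TC-1/IR RT + IL-7 over IL-7 after centring, CD14 was lower, and Ccl6 and Ccl12 were higher. Ccl6 and Ccl12 were under the floor on TC-1/IR IL-7 in both pairs, so only these directions were open to them. The 6 attractants and growth factors of neutrophils on the array (Cxcl1, Cxcl2, Cxcl5, Csf3, Csf2 and Il17a) were all under the floor on that membrane, with a sum of 4.26. They were under it on TC-1/IR RT + IL-7 too, where myeloperoxidase was lowest, with a sum of 4.44, and the sum was 5.43 with buffer, 16.4 with RT and 12.1 to 22.2 in TC-1. A list of 7 inflammatory factors held Il1a, Il1b, Tnf, Il6, Il22, Lif and Il1rn, the last an antagonist of IL-1. On the TC-1/IR buffer, IL-7 and RT + IL-7 membranes Il1b, Il6 and Il22 were under the floor. The 4 measured were higher under IL-7 than under buffer for TC-1/IR, from at least 1.59-fold for Tnf to 5.54-fold for Il1rn. Of all analytes 49.1% were higher in that pair. These 4 were lower with RT + IL-7 than with IL-7, as were 57.4% of all. After centring 2 of 4 met the rule each way, Il1rn and Tnf as higher and Il1a and Tnf as lower. MMP-2, another gelatinase, was above the floor on 8 of 8 membranes, unlike MMP-9.

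Blood plasma markers had their highest summed level on that membrane, where the summed signal of all analytes was highest too. Of 6 on the array, 3 of 4 measured were higher under IL-7 than under buffer for TC-1/IR, with 3.39-fold for Cfd, 3.01-fold for Ahsg and at least 1.63-fold for Rbp4, beside 49.1% of all analytes. After centring 3 of 5 were, beside 32.2%. Their summed level was 462 with IL-7, 396 with RT, 239 with buffer and 245 with RT + IL-7, against 199 to 273 in TC-1. As a share of all signal on the membrane that was 30.9%, 26.9%, 31.2% and 33.1% in the same order, against 17.0% to 21.8% in TC-1. Of this sum pentraxin 2 (Apcs) alone was 249 with IL-7, 177 with RT, 169 with buffer and 165 with RT + IL-7. In TC-1 it was 86.5 to 116. Its share of all signal was 16.7% with IL-7, 22.1% with buffer and 22.3% with RT + IL-7, against 7.38% to 9.61% in TC-1. Apcs was the largest part of the sum on each TC-1/IR membrane, so the summed shares do not speak for the whole list. Shares without Apcs were not computed. Of 6 endothelial markers, 1 was above the floor on TC-1/IR IL-7, with a sum of 6.57 against 3.74 to 13.4 elsewhere. Of the platelet markers, Pf4 was not on the array and Angpt1 was under the floor on both TC-1/IR IL-7 and TC-1/IR buffer. PDGF-BB, the only one measured, was 2.26-fold higher under IL-7 than under buffer. Its log2 ratio was 1.17 as deposited and 0.68 after centring, beside 49.1% and 32.2% of all analytes that were higher. Of 4 tumour cell markers (Areg, Hgf, Spp1 and Vegfa) 3 were above the floor on TC-1/IR IL-7, with Hgf under it. Their sum was 181 there, of which osteopontin (Spp1) alone was 174. The sum was 92.0 with buffer, 196 with RT and 115 to 143 in TC-1, with Spp1 at 88.8, 188 and 103 to 127. So the sum stands mostly for 1 protein. By the rule only Spp1 was higher under IL-7 than under buffer in TC-1/IR, and none was after centring. The part of these proteins in the myeloperoxidase, lipocalin-2 and chitinase 3-like 1 values was not tested. In limma none of these lists had a call for RT, IL-7 or their interaction. For line, Csf3, Csf1, Vegfa and 4 of 5 tested inflammatory factors (Il1a, Il1rn, Lif and Tnf) were lower and Apcs was higher.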

How the data were processed

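The authors deposited spot intensities of a chemiluminescent mouse cytokine antibody array on a linear scale, 222 spots for 111 analytes on each of 8 membranes. Lysates had been cleared at 10000 × g for 5 min, per the labels' protocols. The image software and the background removal is each not given in the sources used here. The per-membrane files and the series table differed in 0 of 1776 spots. No reference spots were present, so intensities were used as deposited.

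Duplicate spots were averaged, values under 2.49 were set to it, and log2 was taken. The 5 proteins and the lists of other markers were chosen with earlier results of these data known. The proteins are named always, and for each of the 3 tested, the 3 analytes most like it by Pearson r on centred values. All 111 analytes had a symbol by Entrez identifier. Across membranes, limma 3.58.1 (R 4.3.3) was fitted to 75 analytes with additive terms for line, RT and IL-7 (4 residual degrees of freedom), so that interactions served as the error. RT by IL-7 was added in a separate fit (3 residual degrees of freedom), and line by RT with line by IL-7 in another (2). Calls needed a Benjamini-Hochberg adjusted p under 0.05. P-values rest on membranes of different conditions. Pairs of single membranes had no test. Correlations used exact permutation in Python 3.11.15, adjusted over the 6 pairs that could be computed. Centring used the 28 analytes above the floor on all membranes. Alternatives were centring, quantile normalization, other floors, a 2-fold threshold, single spots, no filter, an intensity trend, treatment as a block for line, and leaving out each membrane. A floor of 0.1% was added after the data were seen. The limma fits and the rule of size were tested on simulated data, and the correlations and motif search were not. The simulated membranes had no shift of the whole membrane, and their values were not set to the floor. Promoters came from RefSeq, matched by Entrez identifier for 4 of the 5, and Mmp9 had no entry.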

Additional observations from a re-analysis of the deposited data

Results flagged for a closer look

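Pentraxin 3 was singled out because its RT ratios went opposite ways without and with IL-7. The log2 ratio of RT to buffer was 0.12 for TC-1 tumours and 1.06 for TC-1/IR tumours, and that of RT + IL-7 to IL-7 was -0.71 and -0.32. The interaction was -1.10 (SE 0.59) and did not pass the test (limma adjusted p = 0.313). It passed without the TC-1 RT membrane, at -1.75 (limma adjusted p = 0.0366), in a fit that called 15 of 75 analytes, all lower. Without TC-1/IR RT it was -0.46. After centring the ratios were 0.17 and 0.22 without IL-7 and -0.20 and 0.29 with it, so those of TC-1/IR had 1 sign, and the interaction was -0.15 (limma adjusted p = 0.983). The spots of RT and buffer in TC-1 overlapped, and the TC-1/IR RT + IL-7 value was at the floor.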

How the results depend on the processing

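No paired analysis was possible because groups held 1 membrane each, with no animal numbers to pair by. For line, 31 analytes were called as deposited, 37 with treatment as a block (3 higher, 34 lower, pentraxin 3 among them at -1.14, limma adjusted p = 0.0176), 16 after quantile normalization, 10 with a floor of 2%, and 7 to 38 leaving out 1 membrane. The count was 7 without TC-1 RT, 9 without TC-1 IL-7, 15 without TC-1 RT + IL-7 and 13 without TC-1/IR RT + IL-7. The 1 protein of the set called for line (pentraxin 3) became 0 after quantile normalization, with floors of 2% and 0.1%, and with no filter, and 0 to 1 leaving out 1 membrane. For RT, 1 analyte was called, 2 after quantile normalization (myeloperoxidase among them, so 1 of the set), and 0 with floors of 0.5%, 0.1% or per membrane, with an intensity trend, and leaving out any membrane (0 to 0). For RT by IL-7, 0 were called, 2 with no filter, 0 to 15 leaving out 1 membrane (15 without TC-1 RT, 1 without TC-1 IL-7), with 0 to 2 of the set. IL-7 and the interactions with line had 0 calls in every fit run.

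Signs turned in these cases. The line difference of myeloperoxidase was 0.31 after centring, 0.25 after quantile normalization, 0.06 with first spots and -0.96 to 0.41 leaving out 1 membrane. That of chitinase 3-like 1 was 0.43 after quantile normalization and -0.53 to 0.09. The RT difference of pentraxin 3 was -0.02 with floors of 0.5%, 0.1% and per membrane, -0.10 with first spots and -0.34 to 0.35. Leaving out 1 membrane also gave -0.25 to 1.08 for IL-7 on myeloperoxidase, -3.17 to 1.11 (myeloperoxidase) and -0.03 to 1.36 (pentraxin 3) for line by RT, and -0.93 to 3.36 (myeloperoxidase) and -0.52 to 1.04 (chitinase 3-like 1) for line by IL-7. The cause was not tested.

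Over the 12 pairs, 8 higher and 15 lower values of the set were called among 36 ratios (22.2% and 41.7%), against 139 and 267 of 930 over all analytes (14.9% and 28.7%). After centring 7 and 10 of 37 were, against 156 and 168 of 899. On either scale some calls were bounds whose direction the floor fixed. Every lipocalin-2 call was such a bound, measured only through TC-1/IR IL-7, which enters 3 of the 12 pairs. So these counts carry no weight of their own. A floor of 2% gave 3 higher of 30 ratios (10.0%), against 12.7% over all analytes, and 10 lower (33.3%, against 21.5%). A floor of 0.1% gave 14 higher and 23 lower of 54 (25.9% and 42.6%), against 20.4% and 37.2% over all analytes. With a floor of 2%, 1 of 3 in the set was higher for TC-1/IR IL-7 over buffer, beside 45.5% of 33 analytes. For RT + IL-7 over IL-7, 1 of 3 was lower, beside 58.1% of 31. Relations called were 0, and 1 after quantile normalization and with floors of 0.5% and 0.1%, and 0 to 1 leaving out 1 membrane. The r of myeloperoxidase and pentraxin 3 was -0.49 after centring, -0.358 after quantile normalization and -0.412 to 0.716, the last for TC-1/IR IL-7 left out. That of chitinase 3-like 1 and pentraxin 3 was -0.341, -0.818 (exact permutation, adjusted p = 0.0321), -0.35 with a floor of 2%, and -0.184 to 0.637, again that membrane. That of lipocalin-2 and pentraxin 3 was 0.213 with a floor of 0.1%.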

Other observations

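Lipocalin-2 and chitinase 3-like 1 were correlated under lower floors, where more membranes carry a value. With a floor of 0.5% of the highest analyte, their Pearson r over the 8 membranes was 0.783 (exact permutation p = 0.00238, adjusted p = 0.0143) and rho was 0.862. With a floor of 0.1%, chosen after the data were seen, r was 0.904 (exact permutation p = 0.00238, adjusted p = 0.0238) and rho was 0.903. Within the lines r was then 0.923 for TC-1 and 0.906 for TC-1/IR (4 membranes each), and it was 0.882 without the 2 farthest membranes. Most of these values lie below 2.49, where the median SD between duplicate spots was 0.099 to 0.276 per membrane. The main analysis gives such values no order, so these correlations rest on an order it does not use. They were not repeated after centring, and the values share the shift of the whole membrane. With the floor of 0.1% MMP-9 could be correlated too, and its highest r was 0.691 to pentraxin 3 (exact permutation p = 0.0417, adjusted p = 0.139).

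Chitinase 3-like 1 was the 1 of 70 analytes (1.43%) whose 4 membranes with IL-7 all lay above the 4 without after quantile normalization. As deposited and after centring its groups overlapped, and its limma adjusted p for IL-7 was 0.425 to 1.0 over all alternatives.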
